A study of Mus musculus with 4 samples.

Results

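The genes described here are 40 genes of DNA replication and of the passage from G1 into S phase, out of 36869 genes named on a mouse expression array. They were chosen by name, as every non-control probe whose gene name is one of the 40, with the brightest probe standing for a gene that has several. Together they had 77 probes: 17 of the genes had 1 probe and 23 had several, up to 5. In order of their work at the replication fork they were 10 origin licensing genes, 5 genes of helicase activation, 6 polymerase and primase genes, 9 genes of the clamp, its loader and the lagging strand, 4 of nucleotide supply, 3 of chromatin and histone supply, and 3 of G1/S control.

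The cells were RAW264, a macrophage-like line from a BALB/c mouse. They received small interfering RNA (siRNA) against Tfe3 and Tfeb, a pair of related transcription factors, or against green fluorescent protein (GFP) as the control. From 48 hours after transfection they were kept for 24 hours without added iron or with 500 µM ferric chloride. Each of the 4 combinations of siRNA and iron was measured on 1 single-colour Agilent array, so the difference between any pair of groups has no replicate check and no p-value is given.

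DNA replication begins in G1, when the origin recognition complex, Cdc6 and Cdt1 load rings of the Mcm helicase onto DNA. At the start of S phase the helicase is activated with Cdc45 and the GINS complex, and polymerases, a sliding clamp and lagging-strand enzymes copy the strands. Transcripts for much of this machinery are known to be made together near the G1/S boundary by E2F transcription factors, with cyclin E among their targets. In RNA from a whole culture, fewer cells in S phase and less of a transcript per cell cannot be told apart.

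The stretches of DNA before the gene starts are shown here because they are what E2F factors are known to read. RefSeq promoter windows (GRCm38.p6, 250 bases before to 50 after a gene start) matched 33 of the 40 genes. The letters searched were TTTCCCGC, TTTCGCGC, TTTGCCGC and TTTGGCGC, on both strands. At least 1 of them stood in the windows of 13 of the 33 genes (39.4%), against 2.6% of the 27025 genes in the table and 2.26% of its 32851 windows. In the bases before the start alone, 9 of the 33 had one (27.3%), against 2.16% of genes. Shown are Orc1, Cdc6 and Uhrf1, which were lower in siTfe3/Tfeb cells both without and with iron, Mcm5 and Mcm6, which held overlapping or repeated copies, and Gins3, which was not lower. Each line runs 5′ to 3′ on the strand of the gene, and capitals mark the letters found.
Orc1: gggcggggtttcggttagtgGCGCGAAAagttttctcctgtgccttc
Cdc6: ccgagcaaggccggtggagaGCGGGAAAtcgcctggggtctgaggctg
Uhrf1: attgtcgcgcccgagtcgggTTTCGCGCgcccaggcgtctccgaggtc
Mcm5: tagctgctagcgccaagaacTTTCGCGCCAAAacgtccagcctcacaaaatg
Mcm6: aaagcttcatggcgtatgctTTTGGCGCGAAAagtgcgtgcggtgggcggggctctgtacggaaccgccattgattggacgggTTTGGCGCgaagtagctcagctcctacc
Gins3: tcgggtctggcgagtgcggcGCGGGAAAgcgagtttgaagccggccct

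The Orc1 stretch is chr4:108579407-108579453 on the plus strand, with its match starting 27 bases before the gene start. The Cdc6 stretch, chr11:98907993-98908040 (plus), has its match 138 bases before the start. That of Uhrf1, chr17:56304108-56304155 (plus), lies before the second start RefSeq gives the gene, with the match 185 bases away. In Mcm5, chr8:75109336-75109387 (plus), 2 matches overlapped, the nearer 149 bases before the start. In Mcm6, chr1:128359725-128359835 (minus), there were 3 matches, of which the nearest lay 47 bases before the start. The Gins3 stretch is chr8:95633498-95633545 (plus), with the match 41 bases before the start. A match is a description of the letters and not a site of binding. Matches were also present in Cdt1, Mcm3, Mcm7, Pola1, Pold1, Rfc3 and Lig1, in part after the gene start.

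Other short motifs were searched in the same windows. CCAAT stood in 21 of the 33 genes (63.6%, against 41.1% of all genes), and TTTGAA, known from late cell cycle promoters, in 4 (12.1%, against 20.2%). The E box CACGTG, a sequence of the kind that Tfe3 and Tfeb are known to bind, stood in 6 (18.2%, against 8.09%): Pola2, Rpa1, Fen1, Lig1, Tyms and Chaf1a. Of the 10 matched genes that were lower in siTfe3/Tfeb cells under both iron conditions, 4 had the E2F letters and 2 the E box. Of the 23 others, 9 had the E2F letters and 4 the E box. A shorter core, the same E2F letters without their first T, stood in 20 of the 33 genes (60.6%), against 10.9% of all genes.

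Each array had 62976 spots, of which 59305 were not controls, with no saturated spot and 61 to 66 flagged as outliers. Signals are the processed intensities of the scanner files, given first for siGFP cells (without, then with iron) and then for siTfe3/Tfeb cells (without, then with iron). Differences are log2 values after subtraction of each array's 75th percentile, at signals of 619, 627, 636 and 593. The only error available was the spread of 300 probes spotted 6 to 10 times per array: the SD of a difference between arrays was 0.063 for levels above 2 (28 of the 40 genes), 0.10 for levels from 0 to 2 (6 genes), 0.11 for -2 to 0 (5 genes) and 0.50 below -2 (Ccne2). This SD covers the spots and not the cultures, and for levels from -2 to 2 it rests on only 14 combinations of probe and array. Levels of different genes are not set against each other, since probes differ in brightness. The brightest Tfe3 probe read 12421, 11306, 7736 and 7315, so that 60.6% of the control signal was left in the untreated pair and 68.4% in the iron pair. The brightest Tfeb probe read 341, 319, 319 and 338 (91.0% and 112%), so a lower Tfeb transcript was not seen in the libraries labelled siTfe3/Tfeb. All 12 macrophage markers were well above background on the 4 arrays. Of 6 markers each, 1 fibroblast (Col1a2), 1 epithelial (Krt14), 1 endothelial (Pecam1) and 3 lymphocyte genes (Cd3e, Cd3d, Ms4a1) were as well, and their part in the results was not tested.

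All 40 replication genes were well above background on 3 arrays, and 39 on the array of siTfe3/Tfeb with iron, where Ccne2 was not. The siRNA against Tfe3/Tfeb went with lower levels of most of them. Without iron, 38 of 40 lay below 0 in siTfe3/Tfeb against siGFP cells, while 52.9% of the 19252 genes measured did, and 36 of 40 did under quantile normalization. The median difference was -0.30 (range -0.78 to 0.13), against -0.02 for all genes. A difference of at least 0.32 on the log2 scale, a ratio of 125% between the arrays, is counted here as higher or lower. By that count 17 of the 40 were lower, against 19.1% of all genes, and 0 were higher, against 16.3%. At 1.5-fold, 6 were lower (Mcm4, Cdc6, Orc1, Fen1, Rrm2 and Pcna), against 7.04% of all genes.

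With iron the picture was much the same on the other pair of arrays. Of 39 genes, 38 lay below 0 (50.5% of 18800 genes), with a median of -0.25 (range -0.76 to 0.19) against -0.00 for all genes. There 14 were at least 0.32 lower, against 16.1% of all genes, and 0 higher, against 13.1%. At 1.5-fold, 5 were lower (Rrm2, Orc1, Mcm4, Fen1 and Cdc6), against 5.2%. Centring each array on its median raised the median of all genes to 0.12 in this comparison. Under it 33 of the 39 lay below 0, against 34.75% of all genes, and 8 were lower, against 9.69%. Centring moves every gene by the same amount, so it cannot change the distance of -0.25 between the medians of the replication genes and all genes. That distance was -0.22 under quantile normalization, with and without normexp. Many of these genes are bright, so they were also set against the 9847 genes above level 0, a choice made after seeing the data. There 14 of 34 were lower without iron (17.2% of such genes) and 11 of 34 with iron (13.3%).

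The pair of knockdown comparisons share no array. Lower in both were 11 of 39 replication genes, against 10.5% of 18463 genes: Orc1, Cdc6, Mcm3, Mcm4, Mcm10, Pcna, Fen1, Rrm2, Tyms, Uhrf1 and Slbp. Of these, Cdc6, Mcm4, Fen1, Rrm2 and Tyms were lower in both under every scaling and probe rule tried. These were 7 settings with the main one counted, with 7 to 13 genes lower in both across them. They are not separate checks: median centring and the series matrix differ from the main setting only by a constant in each comparison. Both siGFP arrays stood above both siTfe3/Tfeb arrays for 26 of 39 genes, against 28.1% of all genes, and the reverse held for 0 of them, against 24% of all genes. The differences without and with iron ran together across the 39 genes (Pearson r 0.85, Spearman rho 0.83), as they did across all 18463 genes (0.74 and 0.68). These are correlations across genes on 4 arrays, and genes are not independent replicates.

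**Figure D1:**
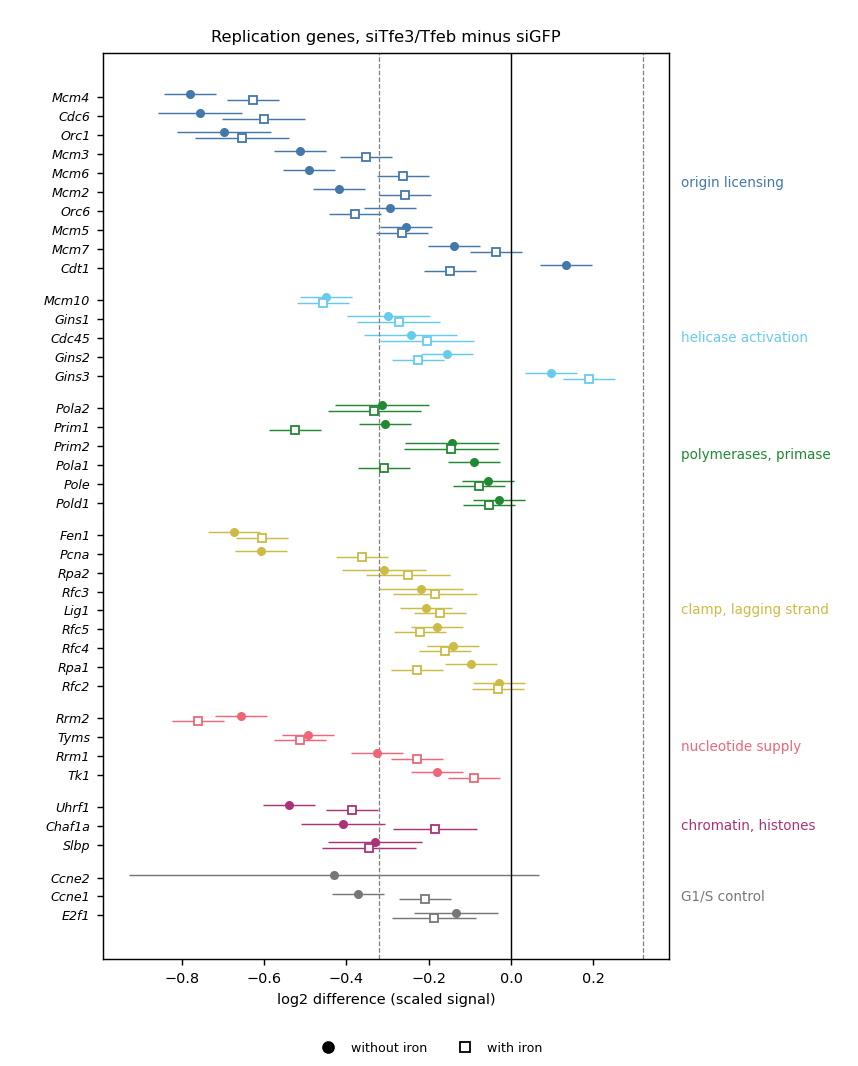
Log2 difference of scaled signal between siTfe3/Tfeb and siGFP cells for each replication gene, without iron (filled circles) and with iron (open squares), grouped by role. Bars are the SD of a difference between repeated spots, dashed lines mark differences of 0.32, and 38 of 40 genes lie below 0 without iron, with Mcm4 farthest at -0.78.

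**Figure D2:**
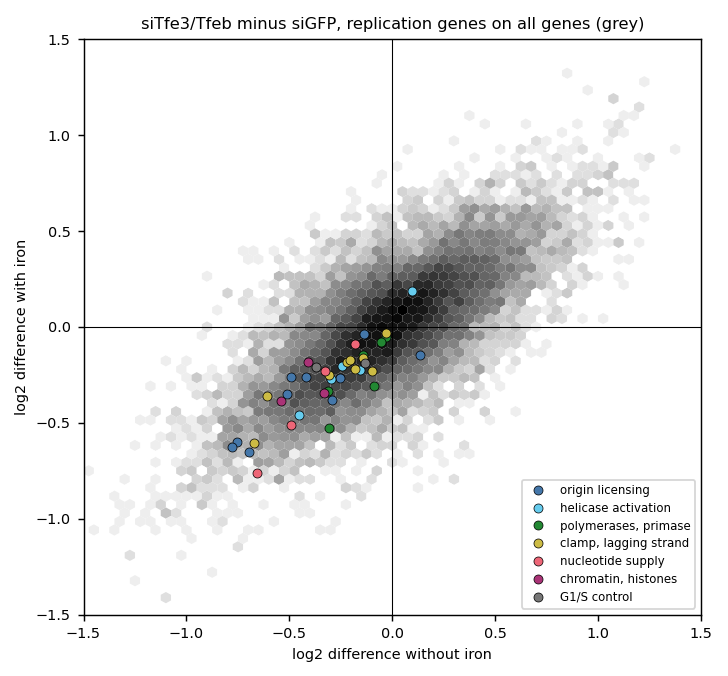
Log2 difference between siTfe3/Tfeb and siGFP cells without iron (x axis) and with iron (y axis), with the 39 replication genes as points coloured by role on a density of all genes in grey. Of 18463 genes 18297 fall within the plotted range of ±1.5, and 37 of the 39 replication genes lie below 0 on both axes, against 39.2% of all genes.

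Among the origin licensing genes, Mcm4, Cdc6 and Orc1 were lowest in siTfe3/Tfeb against siGFP cells, and Cdt1 was not lower. Without iron 9 of the 10 lay below 0 and 6 were lower by 0.32 or more (median -0.45). With iron all 10 lay below 0 and 5 were lower (median -0.31), though Mcm7 lay above 0 there under quantile normalization and median centring.

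Mcm4, a subunit of the ring, read 11554, 10809, 6914 and 6619 (probe at chr16:15624372-15624431, mm9). Both siTfe3/Tfeb arrays stood far below both siGFP arrays, at 58.3% of the control level without iron and 64.8% with iron (log2 -0.78 and -0.63, spot SD 0.063). Cdc6, the ATPase that helps load the rings, read 1233, 1128, 750 and 703 (chr11:98782801-98782860). It showed the same order, at 59.2% and 65.9% of control (-0.76 and -0.60, spot SD 0.10), and its other probe gave -0.73 and -0.63. Orc1, the largest subunit of the origin recognition complex, read 507, 580, 321 and 348 (chr4:108287350-108287409). It stood at 61.7% and 63.6% of control (-0.70 and -0.65, spot SD 0.11). Its 2 dimmer probes gave smaller differences, -0.38 and -0.48 without iron, and -0.03 and -0.25 with iron.

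Of the other ring subunits, Mcm3 read 27498, 24642, 19816 and 18255, again with the siTfe3/Tfeb pair below the siGFP pair (-0.51 and -0.35). Its 3 other probes gave -0.43 to -0.60 without iron and -0.28 to -0.30 with iron. Mcm6 read 35870, 31650, 26240 and 24941 (-0.49 and -0.26), and Mcm2 read 4880, 4683, 3750 and 3702 (-0.42 and -0.26). Both passed 0.32 only without iron. Mcm5 differed by -0.26 and -0.27, and Mcm7 by -0.14 and -0.04, so the subunits of 1 ring did not differ equally. Orc6, another subunit of the origin complex, read 3684, 3551, 3089 and 2581 (-0.29 and -0.38).

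Cdt1, the loading factor that is held in check by geminin outside G1, stood apart. It read 14378, 14266, 16199 and 12174, highest on the siTfe3/Tfeb array without iron and lowest on the one with iron. The knockdown differences were 0.13 and -0.15.

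Of the helicase activation genes, Mcm10 was lower under both iron conditions and Gins3 was not lower under either. Mcm10, which helps the loaded helicase start, read 5645, 4980, 4243 and 3428 (-0.45 and -0.46). Its other, dimmer probe gave -0.07 and -0.37. The 5 genes had medians of -0.24 without and -0.23 with iron, with 1 lower in each.

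Cdc45 (347, 311, 301 and 256) and the GINS subunit genes Gins1 (2819, 2484, 2355 and 1943) and Gins2 (3076, 3082, 2838 and 2492) differed by less than 0.32. Their knockdown differences were -0.24 and -0.20, -0.30 and -0.27, and -0.15 and -0.23. Gins3 read 9427, 8326, 10362 and 8976 (chr8:98168040-98168099), at 107% of control without iron and 114% with iron (0.10 and 0.19, spot SD 0.063). It lay above 0 in both under every scaling tried, while Gins1 and Gins2 lay below 0. Gins4, the remaining GINS subunit gene, is not among the 40 and differed by 0.12 and 0.16.

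The 6 polymerase and primase genes all lay below 0 in both knockdown comparisons, by smaller amounts (medians -0.12 and -0.23). Under quantile normalization Pold1 lay above 0 without iron, and under median centring Pold1 and Pole did with iron. None reached 0.32 without iron, and 2 did with iron, Prim1 and Pola2.

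Prim1, the catalytic subunit of primase, read 4501, 4072, 3742 and 2674. The siTfe3/Tfeb array with iron was by far the lowest, at 69.5% of the iron control against 80.9% without iron (-0.53 and -0.31). Pola1, the catalytic subunit of polymerase alpha, read 2766, 2625, 2671 and 2004, with the same array lowest (-0.09 and -0.31). Its accessory subunit Pola2 read 192, 178, 159 and 134 (-0.31 and -0.33), but 1 of its dimmer probes gave 0.04 and 0.16.

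Prim2, the large primase subunit, read 292, 252, 272 and 215 (-0.14 and -0.14). Pold1 (6276, 5408, 6317 and 4927) and Pole (3904, 3254, 3858 and 2916) encode the catalytic subunits of polymerases delta and epsilon. Their knockdown differences were within about 1 spot SD of 0, at -0.03 and -0.05 for Pold1 and -0.06 and -0.08 for Pole. In both, the arrays with iron were lower than those without.

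Among the 9 genes of the clamp, the clamp loader and the lagging strand, Fen1 and Pcna stood well below the rest. Medians were -0.21 without iron and -0.22 with iron, and those 2 were the only ones lower in either comparison.

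Fen1, the flap nuclease that trims Okazaki fragments, read 16856, 16238, 10854 and 10094 (chr19:10273675-10273734). The siTfe3/Tfeb arrays were at 62.7% and 65.8% of control (-0.67 and -0.60), and iron made next to no difference. Pcna, the sliding clamp, read 23074, 29935, 15567 and 22022 (chr2:132075420-132075557). It was at 65.7% of control without iron and 77.8% with iron (-0.61 and -0.36), and the level in siTfe3/Tfeb cells with iron came close to that of siGFP cells without.

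The clamp loader genes Rfc2, Rfc3, Rfc4 and Rfc5 differed by -0.03, -0.22, -0.14 and -0.18 without iron and -0.03, -0.18, -0.16 and -0.22 with iron. Rfc2 lay above 0 in both under quantile normalization. Rpa1 and Rpa2, of the complex that coats single-stranded DNA, differed by -0.10 and -0.31 without iron, and by -0.23 and -0.25 with iron. Lig1, the ligase that joins Okazaki fragments, differed by -0.21 and -0.17. Fen1 and Lig1 act one after the other, and their differences were unequal.

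**Figure D3:**
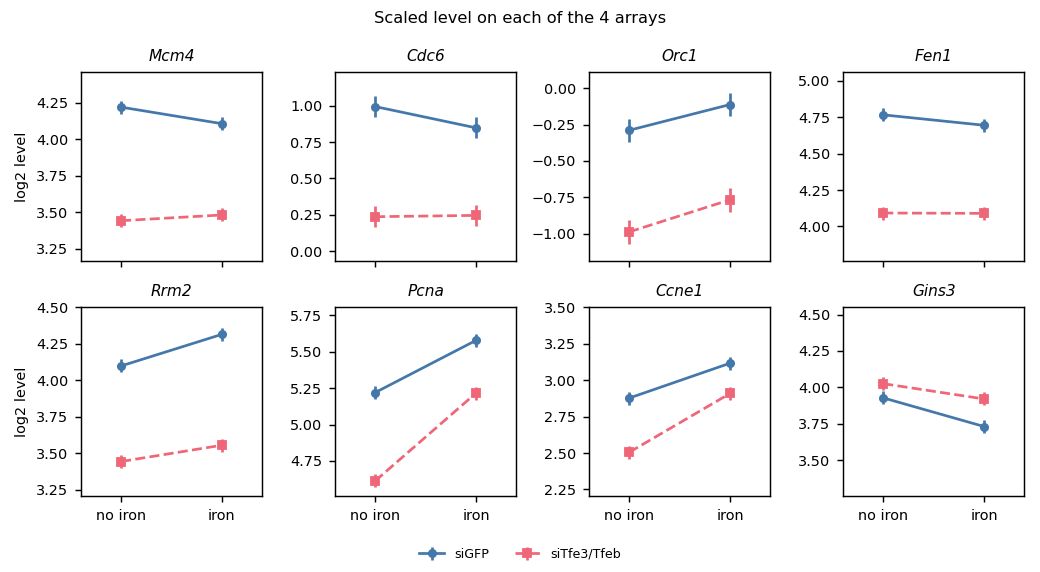
Scaled log2 level of 8 replication genes on each array, with siGFP cells as blue circles and siTfe3/Tfeb cells as red squares, without and with iron on the x axis. Bars are the SD of repeated spots; Mcm4, Cdc6, Orc1, Fen1 and Rrm2 are separated by siRNA, Pcna and Ccne1 also slope up with iron, and Gins3 is slightly higher in siTfe3/Tfeb cells (0.10 and 0.19).

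Nucleotide supply was led by Rrm2, with 3 of 4 genes lower without iron (median -0.41) and 2 with iron (median -0.37). Rrm2, the small subunit of ribonucleotide reductase, which carries the iron-containing radical centre of the enzyme, read 10610, 12484, 6918 and 6964 (chr12:25398824-25398883). Both siTfe3/Tfeb arrays were far below both siGFP arrays, at 63.5% and 59.0% of control (-0.66 and -0.76). The large subunit gene Rrm1 read 8057, 7654, 6610 and 6179, and its differences were less than those of Rrm2 (-0.32 and -0.23).

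Tyms, which makes thymidylate, read 6854, 6345, 5006 and 4203 (-0.49 and -0.51). The differences of its 2 other probes were -0.25 and -0.48 in the untreated pair, and -0.57 and -0.45 in the iron pair. Tk1, the thymidine salvage kinase, read 10730, 9312, 9726 and 8275, with a difference below 0.32 in each (-0.18 and -0.09).

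All 3 genes of chromatin and histone supply were lower without iron (median -0.41), and 2 with iron (median -0.34). Uhrf1, which carries DNA methylation marks over to the new strand, read 10682, 9591, 7547 and 6939 (-0.54 and -0.39). Its other probe gave -0.72 and -0.38. Chaf1a, the large subunit of the histone chaperone CAF-1, read 2599, 2251, 2013 and 1873 (-0.41 and -0.18). Slbp, which binds the stem-loop of histone mRNAs, read 570, 561, 466 and 418 (-0.33 and -0.34, spot SD 0.11), just past the 0.32 that counts as lower.

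In G1/S control, both cyclin E genes were lower in siTfe3/Tfeb cells without iron, and E2f1 differed little. Under normexp only Ccne1 was lower, and under normexp with quantile normalization neither cyclin E gene was. Ccne1 read 4552, 5439, 3613 and 4452 (chr7:38882937-38882960), with the siGFP array with iron the highest and the siTfe3/Tfeb array without iron the lowest (-0.37 and -0.21). Ccne2 was dim, at 39, 46, 29 and 20, and its difference of -0.43 without iron was within the spot SD of 0.50. With iron it was not well above background in siTfe3/Tfeb cells. The lowest level counted on that array put it at least 2.05-fold below the siGFP array, without allowing for the spot SD. E2f1, which drives transcription of many of the genes above, read 2005, 1994, 1877 and 1656 (-0.13 and -0.19).

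Dimmer probes of the same genes gave a check of the probes within the arrays, and not of the cultures. How often such probes match over all genes was not computed. Of 31 other probes measured, in 22 genes, 29 had the sign of the brightest probe in the knockdown comparison without iron, and 29 with iron. For the genes counted as lower without iron, all 13 other probes, in 8 genes, were below 0 and 10 were also past 0.32. With iron 13 of 14 had the same sign and 6 were past it.

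Iron alone went with small differences in these genes. In siGFP cells 34 of 40 were below 0 with iron (54.9% of 19137 genes), with a median of -0.15 (range -0.28 to 0.36) against -0.03 for all genes. None was lower by 0.32, against 9.85% of all genes, and 1, Pcna, was higher, against 10.8%. Among genes above level 0 these shares were 5.35% and 7.79%. In siTfe3/Tfeb cells 30 of 39 were below 0 (50.5% of 18943 genes), with a median of -0.12 (range -0.38 to 0.60). Only Prim1 was lower, against 12.9% of all genes, and Pcna and Ccne1 were higher, against 12.6%. Here the shares among genes above level 0 were 8.33% and 9.81%. Median centring raised the median of all genes to 0.10 there and left 22 of the 39 below 0, against 34.8% of all genes. Under it 0 were lower, against 7.87% of all genes, and 3 were higher, against 20.8%. The replication genes lay 0.11 below the median of all genes under both scalings, a distance that median centring cannot change. It was -0.13 under quantile normalization and -0.097 under the mean of all probes.

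The iron comparisons of the siRNA groups share no array. Below 0 in both were 29 of the 39 genes, against 38.1% of all genes. Across the genes the differences had a Pearson r of 0.77 and a Spearman rho of 0.56, against 0.63 and 0.53 over all 18463 genes.

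Pcna had the largest iron difference of the 40 genes in both siRNA groups. It was at 128% of the level without iron under the control siRNA and at 152% under siTfe3/Tfeb (0.36 and 0.60). Ccne1 was at 118% and 132% (0.24 and 0.40). Orc1 (113% and 117%) and Rrm2 (116% and 108%) were also above 0 in both, by less than 0.32.

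The polymerase and primase genes had medians of -0.20 in siGFP and -0.28 in siTfe3/Tfeb cells, and all 6 lay below 0 in both under every scaling of the brightest probe. Prim1 was at 89.4% and 76.7% of the level without iron (-0.16 and -0.38), Pole differed by -0.28 and -0.30, Pold1 by -0.23 and -0.26 and Prim2 by -0.23 and -0.23. The other Prim2 probe, dimmer, gave 0.24 and 0.07. Pola1 differed by -0.09 and -0.31, and Pola2 by -0.13 and -0.15.

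Licensing genes had medians of -0.13 in siGFP and -0.00 in siTfe3/Tfeb cells. Mcm7 was lowest of them in siGFP cells (-0.28 and -0.18), with Mcm5 (-0.19 and -0.20), Mcm6 (-0.20 and 0.03) and Mcm3 (-0.18 and -0.02) above it. Cdc6, Mcm2 and Mcm4 lay at -0.15, -0.08 and -0.11 in siGFP cells and at 0.01, 0.08 and 0.04 in siTfe3/Tfeb cells. Cdt1 differed by -0.03 and -0.31, and Orc6 by -0.07 and -0.16.

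Helicase activation genes had medians of -0.20 and -0.13, with Mcm10 at -0.20 and -0.21, Gins1 at -0.20 and -0.18, Gins3 at -0.20 and -0.10, Cdc45 at -0.18 and -0.13, and Gins2 at -0.01 and -0.09. In the clamp and lagging strand group Lig1 (-0.28 and -0.25) and Rfc5 (-0.23 and -0.27) were lowest. Rfc2, Rfc3, Rfc4 and Rpa2 lay between -0.20 and -0.11 in both. Fen1 was near 0 (-0.07 and -0.00), as was Rpa1 (0.07 and -0.06).

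Of the remaining genes, Tk1 (-0.22 and -0.13), Tyms (-0.13 and -0.15), Uhrf1 (-0.17 and -0.02) and Slbp (-0.04 and -0.06) lay below 0 with iron in both siRNA groups. Chaf1a was at -0.22 in siGFP cells and at 0.00 from the level without iron in siTfe3/Tfeb cells. Rrm1 lay at -0.09 and 0.01, and E2f1 at -0.03 and -0.08. Ccne2 differed by 0.24 in siGFP cells, within its spot SD of 0.50. In siTfe3/Tfeb cells it read 29 without iron and 20 with iron, where it was not well above background. The lowest level counted on that array put it 1.29-fold below, a difference also within that SD.

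**Figure D4:**
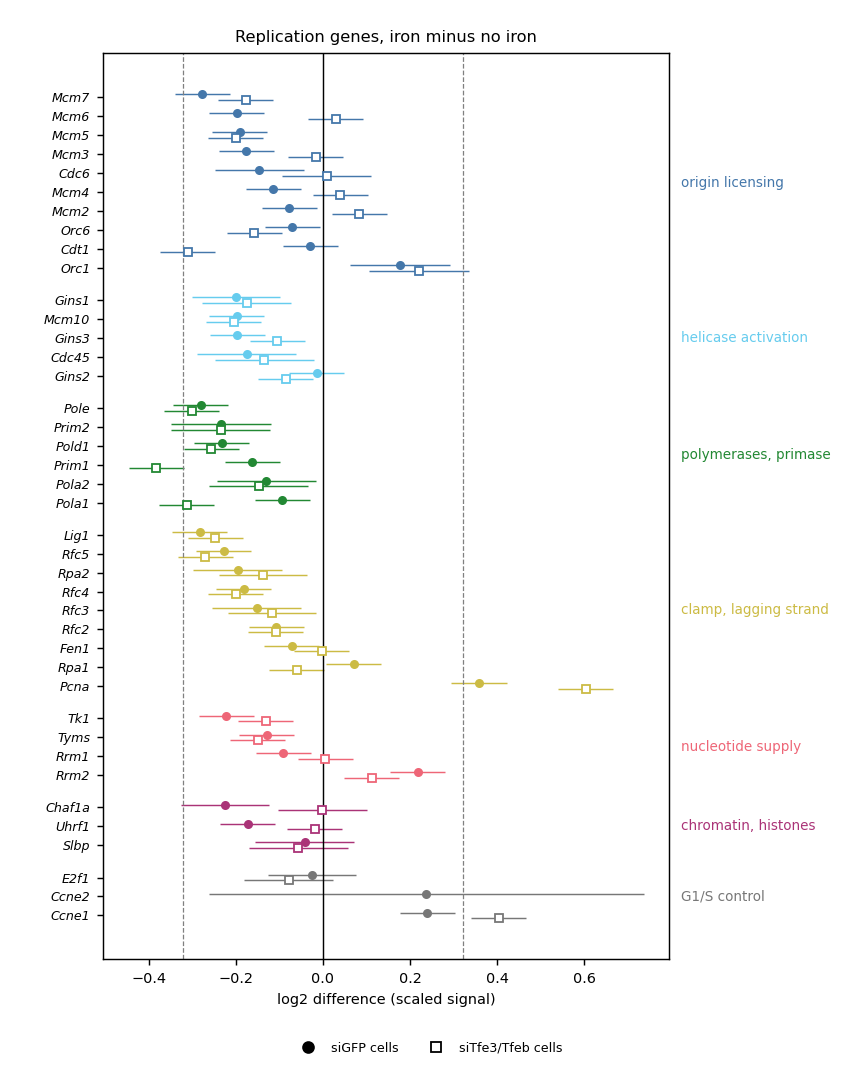
Log2 difference of scaled signal between cells with and without iron for each replication gene, in siGFP cells (filled circles) and siTfe3/Tfeb cells (open squares), grouped by role. Bars are the SD of a difference between repeated spots and dashed lines mark differences of 0.32; most points lie between -0.28 and 0, while Pcna reaches 0.36 and 0.60.

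None of the 39 replication genes well above background on all 4 arrays differed by 0.32 between the siRNA groups in its iron response. The difference of the responses, siTfe3/Tfeb minus siGFP, had a median of 0.02 (range -0.28 to 0.24) over 39 genes, 19 of them below 0 against 47.6% of all genes. Against the 0 that were lower and the 0 that were higher, 9.86% and 10.6% of all 18463 genes were. The shares were smaller among the 9847 genes above level 0, at 3.62% lower and 5.02% higher. Of the 34 replication genes above level 0, 0 were either. The lowest were Cdt1 (-0.28), Pola1 and Prim1 (both -0.22), and the highest Pcna (0.24), Mcm6 (0.23) and Chaf1a (0.22), where the spot SD of such a difference was 0.089 for bright genes and 0.14 for Chaf1a. Median centring raised the median of all genes to 0.13 and that of the replication genes to 0.15. Under it 4 of the 39 lay below 0, against 27.4% of all genes, and 3 were higher, against 19.9%.

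Of the 39 genes well above background on the 4 arrays, 32 were highest in siGFP cells without iron, against 25.4% of all genes, and 38 were lowest on a siTfe3/Tfeb array, against 53%. Pcna, Ccne1, Orc1, Rrm2 and Rpa1 were highest in siGFP cells with iron, and Cdt1 and Gins3 in siTfe3/Tfeb cells without iron.

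Other genes of the pathway were taken from lists by function. In siTfe3/Tfeb against siGFP cells without iron, 25 of 37 further replication genes, 13 of 16 nucleotide supply genes and 9 of 15 chromatin genes lay below 0, against 52.9% of all genes. With iron 26, 13 and 11 did, against 50.5%. The shares of all genes lower and higher by 0.32 were 19.1% and 16.3% without iron, and 16.1% and 13.1% with iron. Under median centring those with iron were 9.69% and 23.3%. Of the 37 further replication genes, 9 were lower (24.3%) and 3 higher without iron (median -0.14). With iron 11 were lower (29.7%) and 0 higher (median -0.17), or 5 and 2 under median centring. Without iron the mean of all probes also gave 9 lower and 3 higher, with a median of -0.07. The farthest below were Pole4, a small subunit of polymerase epsilon (-0.87 and -0.66), Exo1, a repair exonuclease (-0.78 and -0.72), and Donson, a helicase assembly factor (-0.66 and -0.83). Dbf4, the activator of the Cdc7 kinase, was above 0 (0.56 and 0.02). Of the 16 nucleotide supply genes, 9 were lower (56.2%) and 2 higher without iron (median -0.38). With iron 6 were lower (37.5%) and 0 higher (median -0.20), or 3 and 1 under median centring. The mean of all probes gave 7 lower and 2 higher without iron (median -0.25). Shmt1, which feeds thymidylate synthesis (-1.13 and -0.78), Umps of pyrimidine synthesis (-0.73 and -0.79) and Dctd, which supplies deoxyuridylate (-0.80 and -0.59), were the lowest. Of the 15 chromatin genes, 2 were lower (13.3%) and 1 higher without iron, and 1 was lower (6.67%) and 1 higher with iron (medians -0.14 and -0.18), shares below those of all genes.

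With iron in siGFP cells, 1 of the 37 further replication genes was lower and 0 higher (median -0.12), 3 of the 16 nucleotide supply genes were lower and 1 higher (median -0.12), and 0 of the 15 chromatin genes were either (median -0.10). Of all genes 9.85% were lower and 10.8% higher there. In siTfe3/Tfeb cells 7 of the 37 were lower, 18.9% against 12.9% of all genes, and 0 higher (median -0.15). Under median centring 3 were lower and 1 higher, against 7.87% and 20.8% of all genes. Recql4 (-0.28 and -0.49) and Ticrr (-0.35 and -0.49), both factors of origin firing, were among the lowest. In the nucleotide list Paics, of purine synthesis, was lower with iron in siGFP cells (-0.44) and differed by -0.32 in siTfe3/Tfeb cells.

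The list of 26 G1/S regulators was spread wider. Without iron 10 of 25 measured were lower in siTfe3/Tfeb cells (40%, against 19.1% of all genes) and 2 higher (8.0%, against 16.3%), with a median of -0.26. Of the 25, 19 lay below 0 (52.9% of all genes did), and 15 did under the mean of all probes. With iron 8 of 26 were lower (30.8%, against 16.1%) and 1 higher (3.85%, against 13.1%), with a median of -0.22. Under median centring 5 were lower and 4 higher, against 9.69% and 23.3% of all genes. Ccnd1, cyclin D1, read 13835, 12574, 7087 and 10148, lowest on the siTfe3/Tfeb array without iron (-1.0 and -0.23). E2f3, an activating E2F, differed by -0.81 and -0.66, Mybl2 by -0.68 and -0.47, and the phosphatase gene Cdc25a by -0.56 and -0.60. In each comparison 6 genes of the list lay above 0, among them E2f2 (0.28 and 0.21) and Tfdp2 (0.62 and 0.30). Rb1, the retinoblastoma protein that holds E2F in check, read 1642, 1589, 3386 and 2442, highest on both siTfe3/Tfeb arrays (1.01 and 0.70).

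Genes of mitosis stood on the other side of 0 from the replication genes in siTfe3/Tfeb cells without iron. Of 25 mitotic genes, 0 lay below 0 (52.9% of all genes did) and 15 were at least 0.32 higher (60%, against 16.3% of all genes; median 0.37), and this count was 15 to 19 across the scalings. With iron 4 lay below 0 and 4 were higher (16%, near the 13.1% of all genes; median 0.15), with 10 higher under median centring, where 23.3% of all genes were, and 2 under normexp. Ccnb2, cyclin B2, read 13080, 11251, 23297 and 14736, and Nusap1, a spindle protein, read 2252, 1794, 4147 and 2135. Both were highest on the siTfe3/Tfeb array without iron. With iron all 25 lay below 0 in both siRNA groups. In siGFP cells 4 were lower (median -0.17), against 9.85% of all genes. In siTfe3/Tfeb cells 20 were lower (median -0.45), against 12.9% of all genes. Under median centring 15 were lower there, against 7.87% of all genes. The part of the share of cells in each phase in the values of the replication genes was not tested.

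**Figure D5:**
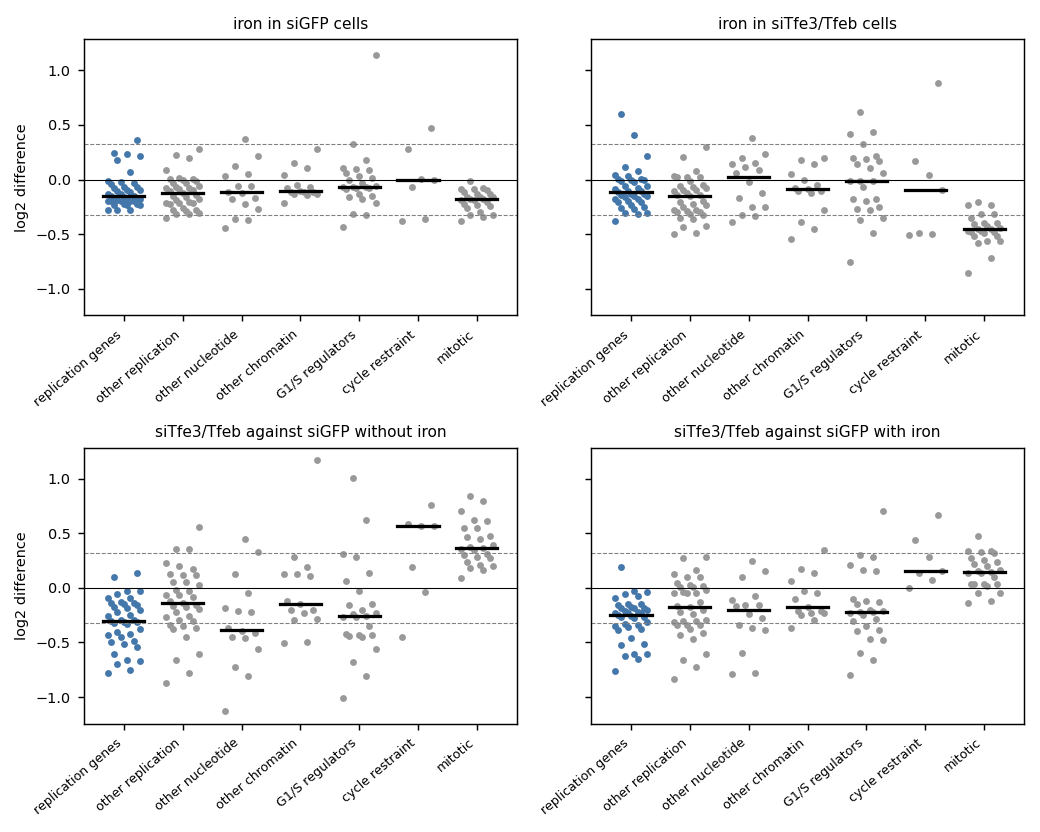
Log2 difference in each of the 4 comparisons for the replication genes (blue) and for 6 lists of related genes (grey), 1 point per gene, with the median as a black bar and differences of 0.32 as dashed lines. In siTfe3/Tfeb cells without iron the replication genes have a median of -0.30 and the mitotic genes one of 0.37.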

How the data were processed

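Per the labels' protocols, Cy3-labelled RNA of RAW264 cells was put on Agilent SurePrint G3 arrays. Signals were extracted with Agilent Feature Extraction 12.0.3.1, per the submitters' processing notes. The deposited scanner files give a processed signal intensity for each spot, background-subtracted and, per the file headers, not scaled between arrays. The series matrix deposited by the authors is in log2 units. Differences between its columns had a slope of 1 against the scanner values, and each probe was centred on its median over the arrays. Its column medians were -0.0042, 0.022, -0.087 and 0.0013 (siGFP without and with iron, then siTfe3/Tfeb without and with iron). The arrays shared 1 slide and 1 scan.

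From these, log2 of the processed intensity minus the 75th percentile of the array's non-control spots was computed, leaving out control and outlier spots (56602 of 56605 probes kept), with spots of 1 probe averaged and the brightest probe taken per gene name. Genes were compared only where well above background on both arrays (all 4 for the difference of responses). The 40 genes and the lists of related genes were chosen with earlier results of these data known. Genes given in full had the 5 largest differences in each direction per comparison. Related lists name up to 3 genes per comparison, and E2f2 is named beside E2f3. With 1 array per group no p-value is given, and a fit of additive siRNA and iron effects was not run; the number of arrays limits the precision. Probe positions are those of the array design (mm9); where they lie in exons or UTRs was not analysed here. Alternatives were quantile normalization, median centring, normexp (offset 50, limma 3.58.1, R 4.3.3), the series matrix, the mean of all probes, no background filter and a 1.5-fold threshold. Other steps used Python 3.11.15 with numpy 2.4.6 and pandas 2.3.3. The calculation of differences was tested on simulated data with spot error only, which does not cover variation between cultures.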

Additional observations from a re-analysis of the deposited data

Results flagged for a closer look

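For 2 of the 40 genes the direction differed between groups by more than the spot SD on both sides. The difference was not tested, since each group is 1 array. The iron difference of Mcm2 was -0.08 under the control siRNA and 0.08 under siTfe3/Tfeb, 0.16 apart. The siTfe3/Tfeb difference of Cdt1 was 0.13 without iron and -0.15 with iron, a change of -0.28. Median centring put the median of all genes with iron at 0.12, close in size to the -0.15 of Cdt1. Cdt1 still lay below 0 under it.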

How the results depend on the processing

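No direction of a difference past 0.32 was reversed under the alternatives. In siTfe3/Tfeb against siGFP cells the number of genes lower was 13 to 20 without iron and 8 to 15 with iron across normalizations, probe rules and filters, and none was higher. At 1.5-fold the counts were 6 and 5. Median centring, which put the median of all genes at 0.12 with iron, 0.10 for iron in siTfe3/Tfeb cells and 0.13 for the difference of responses, gave medians of -0.13 with iron (8 lower), -0.014 for iron in siTfe3/Tfeb cells (0 lower) and 0.15 for the difference of responses (3 higher). Under median centring 9.69% of all genes were lower with iron and 7.87% for iron in siTfe3/Tfeb cells. In the difference of responses 19.9% of all genes were higher under it. Normexp with quantile normalization gave a median of -0.23 without iron. For iron in siTfe3/Tfeb cells, where 1 gene was lower, 3 were under quantile normalization, under normexp with quantile normalization and under the mean of all probes, 2 without the background filter and 0 at 1.5-fold, where 1 was higher. For iron in siGFP cells the mean of all probes gave 1 lower gene, and 1.5-fold gave 0 higher. Without the background filter 1 gene, the dim Ccne2, had a lower iron response in siTfe3/Tfeb cells. The 7-letter E2F core was found in 20 genes in place of 13. Of 119 such counts and medians 100 stayed within 1.5 times the count or the spot SD. Restricting to genes above level 0 was chosen after seeing the data. With 1 array per group no culture could be left out. Signal limits Ccne2 most, which was not well above background on 1 array.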

Other observations

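A list of 10 genes that restrain the cell cycle holds 7 inhibitors of cyclin-dependent kinases, of which 4 were measured (Cdkn1a, Cdkn1b, Cdkn2c and Cdkn2d), and Btg1, Btg2 and Gadd45a. In siTfe3/Tfeb cells without iron 4 of the 7 genes measured were at least 0.32 (log2) higher than in siGFP cells, against 16.3% of all genes, and 1 was lower, against 19.1% (median 0.57). Of these 4, Gadd45a was dim, at a difference of 0.59 with a spot SD of 0.50. The median was 0.30 under normexp, with 3 higher, and 0.33 under normexp with quantile normalization, with 0 lower. With iron 2 were higher, against 13.1% of all genes, and 0 lower, against 16.1% (median 0.15). Under median centring 3 were higher (median 0.27), against 23.3% of all genes. Cdkn2d, the inhibitor p19, read 4883, 4930, 8466 and 7402 for siGFP cells without and with iron and siTfe3/Tfeb cells without and with iron (0.76 and 0.67). Cdkn1b, the inhibitor p27, read 3034, 2400, 4627 and 3073 (0.57 and 0.44). Cdkn2c, the inhibitor p18, differed by 0.57 and 0.13.

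Cdkn1a, the inhibitor p21, which is known to bind Pcna, read 10520, 12921, 7923 and 13596. It was lowest on the siTfe3/Tfeb array without iron and highest on the one with iron. Its iron differences were 0.28 in siGFP and 0.88 in siTfe3/Tfeb cells, beside 0.36 and 0.60 for Pcna and 0.24 and 0.40 for Ccne1.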
